A study of Homo sapiens and Mus musculus with 36 samples.

Results

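Plasma carrier proteins and fetal liver markers were followed through DOT1L loss in liver tumour cells by means of 10 genes: ALB, AFP, AHSG, TTR, GC, RBP4, AMBP, ITIH2, GPC3 and DLK1. They were taken by symbol from 26457 symbols in the HuH-7 guide libraries and, in title case, from 22673 symbols in the mouse libraries. All 10 were listed in both, while the table with DMSO and EPZ-5676 lists 15899 symbols and 9 of the 10, without DLK1. RNA sequencing covered 36 libraries in 17 groups. HuH-7 is a human line labelled hepatocellular carcinoma, as are the mouse lines Hepa1-6 and Hep53.4, and the mouse line LLC is labelled lung carcinoma. In each line the control group carried the guide sgNeg2 and is labelled WT, and the knockout groups carried DOT1L guide #1 or #2 (Dot1l in mouse), called sg1 and sg2 here, with 2 libraries per guide. Each HuH-7 guide group exists without and with interferon (IFN), and neither its kind nor its dose or duration is labelled. A separate HuH-7 pair of groups, labelled WT, received DMSO or EPZ-5676, an inhibitor of the DOT1L enzyme, with 3 libraries each. Treatment with EPZ-5676 lasted 7 days. The lines are cultured tumour cells, and the labels do not say whether a knockout is a clone or a pool, nor whether replicates are separate cultures, so each p-value measures only the spread between these libraries.

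DOT1L adds methyl groups to a lysine in the core of histone H3, a mark found along transcribed genes. Hepatocytes secrete most plasma proteins. Albumin (ALB) carries fatty acids, bilirubin and many drugs, alpha-fetoprotein (AFP) is its fetal counterpart and a serum marker of liver cancer, and the gene GC encodes the vitamin D-binding protein of the same family. Transthyretin (TTR) carries thyroxine and holds the retinol carrier RBP4 in the circulation. AHSG encodes fetuin-A, which keeps calcium phosphate in solution. AMBP encodes a precursor that is cleaved into alpha-1-microglobulin and the protease inhibitor bikunin, and ITIH2 encodes a heavy chain that is linked to bikunin in inter-alpha-inhibitor. GPC3 (glypican-3, a heparan sulphate proteoglycan) and DLK1 (an imprinted relative of the Notch ligands) are surface proteins of fetal liver cells that reappear in many liver tumours. Bulk RNA cannot tell fewer cells of a type from less RNA per cell.

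The albumin family lies in 1 stretch of human chromosome 4. In GENCODE v29 on hg38, ALB spans chr4:73397114-73421412, AFP spans chr4:73431138-73456174 and both are on the + strand. The gap between them is 9725 bases, and 25508 bases further on from AFP lies AFM, the gene of the vitamin E carrier afamin. GC lies on the - strand at chr4:71741693-71804041, 1593072 bases from ALB. AHSG is at chr3:186612923-186621318 on the + strand. The sequences of ALB and AFP are shown because these neighbours moved in opposite directions in HuH-7 knockout cells without IFN. That of AHSG is shown because it rose the most in HuH-7 knockout cells. Promoters were matched in the RefSeq table for GRCh38.p14 for 5 of the 10 genes (ALB, AFP, AHSG, RBP4 and AMBP) and not for TTR, GC, ITIH2, GPC3 and DLK1. Each sequence runs 5′ to 3′ on the + strand from 250 bases before the RefSeq start and ends before the earliest exon of the gene in GENCODE v29 that reaches into this window. Capitals mark matches to the motifs searched.
ALB, chr4:73404037-73404238: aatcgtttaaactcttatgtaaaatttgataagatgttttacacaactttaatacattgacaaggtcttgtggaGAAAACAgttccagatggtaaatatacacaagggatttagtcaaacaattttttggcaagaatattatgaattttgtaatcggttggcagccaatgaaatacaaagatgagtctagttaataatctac
AFP, chr4:73435971-73436162: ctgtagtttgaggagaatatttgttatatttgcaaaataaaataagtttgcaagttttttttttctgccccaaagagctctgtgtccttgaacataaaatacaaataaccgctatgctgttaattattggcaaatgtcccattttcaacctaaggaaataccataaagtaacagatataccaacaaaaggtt
AHSG, chr3:186612810-186612922: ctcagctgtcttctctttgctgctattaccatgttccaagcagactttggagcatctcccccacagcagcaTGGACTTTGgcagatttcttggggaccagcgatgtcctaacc

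The motifs were searched on both strands over the 250 bases before each start. The FOXA motif TGTTTNC was matched in the ALB window at -176 (counted from the RefSeq start). It was also matched in the AHSG window at -137 and -116, in the part not printed. Of 35116 promoter windows, 15.457% hold this motif. The HNF4 motif (CAAAGTCCA or CAAAGGTCA) was matched in the AHSG window at -179, and 0.664% of windows hold it. The TATA box TATAAA was matched in the AFP window at -29, in the part not printed, against 10.716% of windows. A palindromic HNF1 motif, held by 0.088% of windows, and the C/EBP motif TTGCGCAA, held by 0.131%, gave no match in the windows of these 3 genes. The motifs do not overlap each other in these windows. A match describes letters only, and the lack of a match to these exact letters does not show that a site is missing.

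Total counts ran from 19580588 to 22649969 per library in HuH-7 without IFN, from 47594968 to 61227426 with IFN, from 48912627 to 58628528 with DMSO or EPZ-5676 and from 42637155 to 59686358 in the mouse lines. Histone and small RNA genes held 2.70% to 4.38% of counts without IFN and at most 0.0561% with IFN, so the effect of IFN cannot be told apart from this difference between the libraries. DOT1L itself checked the labels: its mean fell from 74.3 CPM (counts scaled to a common library size) in sgNeg2 to 33.9 in sg1 and 37.6 in sg2 without IFN, and from 109 to 44.5 and 66.7 with IFN. Its mean was 52.9 CPM with DMSO and 49.3 with EPZ-5676, which acts on the enzyme. Mouse Dot1l was lower in knockout than in sgNeg2 groups of all 3 lines, from 43.6 to 14.8 and 16.2 CPM in Hepa1-6, from 23.4 to 13.4 and 15.9 in Hep53.4 and from 61.1 to 29.4 and 31.6 in LLC. Replicates differed by more than sampling noise in every group, with HuH-7 sg2 and Hepa1-6 sg1 standing highest at 27.2 and 66.6 for the chi-square per gene, against at least 2.93 elsewhere.

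HuH-7 expressed 9 of the 10 genes. On the scale of CPM per kilobase of the longest coding transcript, the level in sgNeg2 cells without IFN was highest for ALB at 1323 ± 7 (SD, n = 2), followed by RBP4 at 917, AMBP at 660, GPC3 at 485, ITIH2 at 148 and AFP at 133. TTR at 52.1, GC at 28.6 and AHSG at 3.82 followed, and no 2 neighbours in this order had overlapping ranges. DLK1 had 0 counts in all 12 guide libraries, which allows a level of up to 0.00695 CPM over them, counting error only. With IFN the per-kilobase order changed at 2 places, where AMBP (869) stood above RBP4 (840) and GC (24.5) above TTR (13.7). The DMSO libraries, which come from a separate table, had ALB at 2143, AMBP at 905, RBP4 at 685, GPC3 at 576, ITIH2 at 347, AFP at 317, TTR at 39.2, GC at 24.6 and AHSG at 8.55 on the same scale. The cell type label matched hepatocyte markers other than these genes, since all 10 listed stood above 1 CPM in every HuH-7 guide library but 1, where 9 did.

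**Figure D1:**
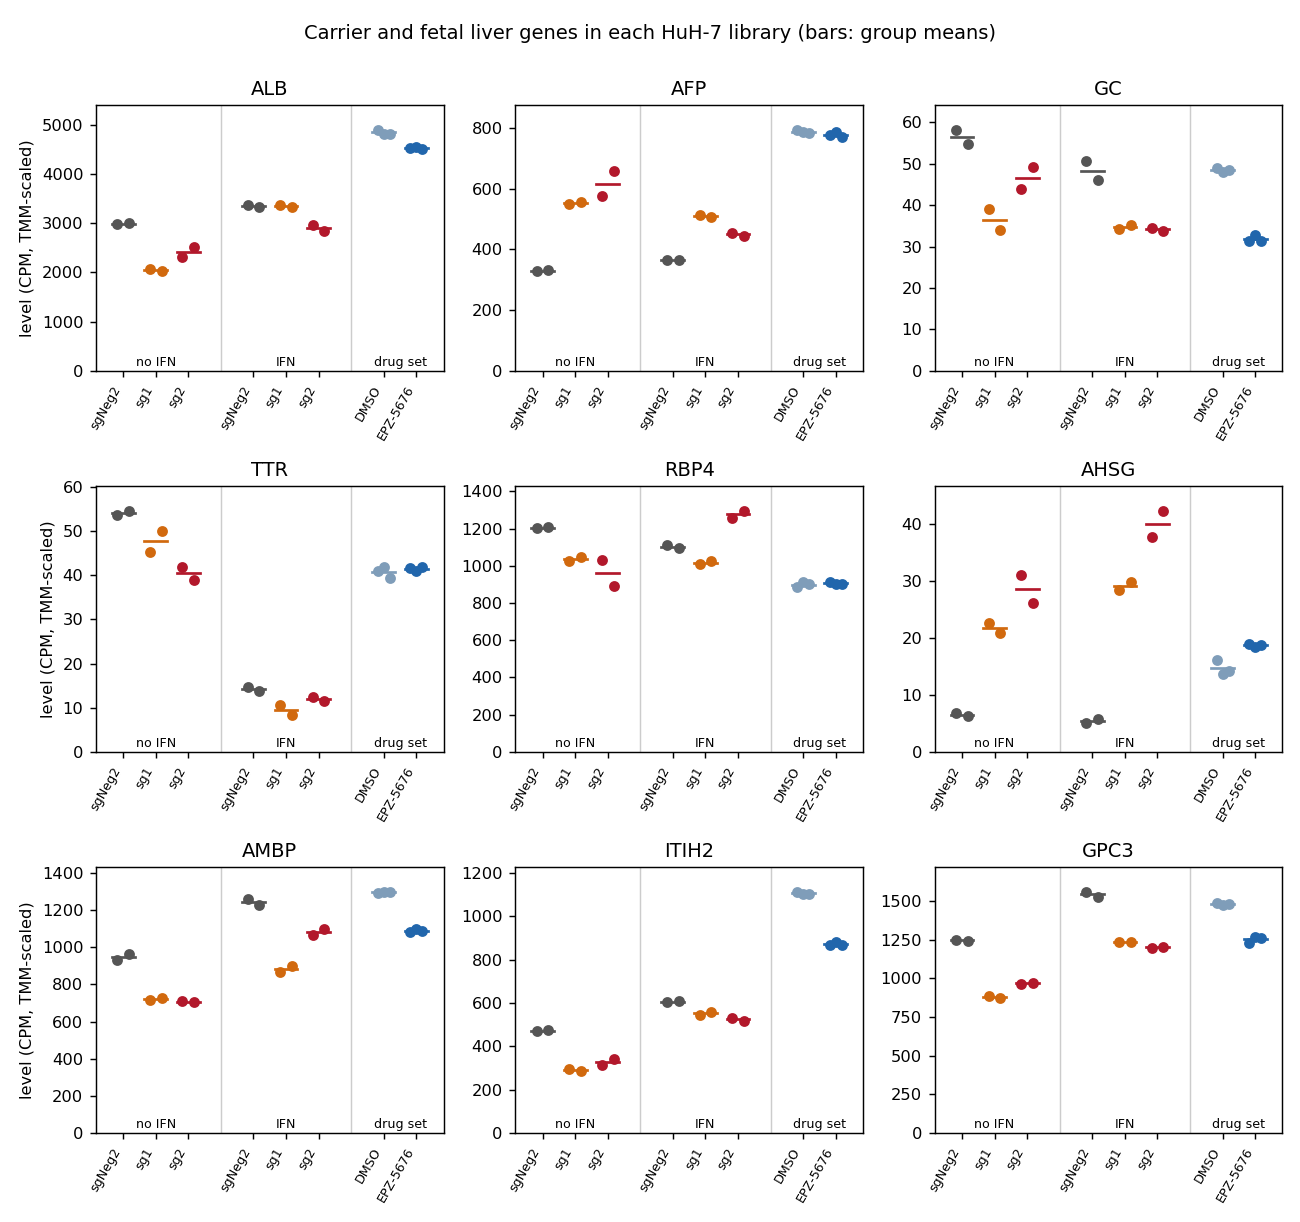
CPM in each HuH-7 library on a linear axis, 1 panel per gene. Points are libraries, grouped by guide, IFN and drug. AHSG in knockout libraries lies between 20.9 and 42.3 CPM, against 5.11 to 6.76 in the sgNeg2 libraries.

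Knockout of DOT1L in HuH-7 without IFN raised AHSG and AFP and lowered ALB, GC, AMBP, ITIH2 and GPC3. These are 2 genes called higher and 5 called lower of 9 tested by edgeR's quasi-likelihood test at an adjusted p below 0.05, while 11.3% of all 16448 genes tested were called. The median log2 change was -0.41 over the 9 genes and 0.00295 over all genes. All 4 knockout libraries lay above both controls for 2 genes and below both for 7 of the 10, and 45.9% of all genes did not overlap in this way. Over all genes, 61.4% of calls were higher, but 51.0% with RLE scaling, 46.9% with DESeq2, 47.7% without histone and small RNA genes, 33.4% with an offset for transcript guanine-cytosine content, 47.3% with sg1 alone and 50.9% with sg2 alone. Without sgNeg2 replicate 1 or 2, ALB (adjusted p = 0.0914 and 0.0741), GC (0.232 and 0.0939) and AMBP (0.0753 and 0.0618) lost their calls, and 4 genes were called in each.

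With IFN in both genotypes, AHSG and AFP were again higher and GC, AMBP and GPC3 lower in knockout cells. This makes 2 higher and 3 lower of 9, and 12.4% of all genes were called. The median log2 change was -0.17 over the 9 genes and -0.06 over all genes. Knockout libraries lay above both controls for 2 genes and below both for 5, against 32.8% of all genes that did not overlap. Higher calls made up 57.4% over all genes, but 71.3% without histone and small RNA genes, 33.8% with the guanine-cytosine offset, 34.1% and 35.9% with sg1 or sg2 alone and 81.5% with only the 6 IFN libraries fitted. Without IFN sgNeg2 replicate 1 or 2, AFP (adjusted p = 0.0739 and 0.0830), GC (0.153 and 0.0519) and AMBP (0.159 and 0.110) lost their calls, which left 2 genes in each.

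AHSG had the largest change of the 9 genes in both settings. Without IFN its sgNeg2 libraries held 6.76 and 6.30 CPM, its sg1 libraries 22.6 and 20.9 and its sg2 libraries 30.9 and 26.1. All knockout libraries were far above both controls, and sg2 stood above sg1. The log2 change was 1.94 ± 0.20 (SE), 3.85-fold (edgeR adjusted p = 5.07e-05). With IFN the libraries held 5.11 and 5.68 CPM in sgNeg2, 28.4 and 29.8 in sg1 and 37.6 and 42.3 in sg2. The separation was again complete, with a log2 change of 2.68 ± 0.20 or 6.39-fold (edgeR adjusted p = 2.19e-06). Both calls held in each alternative fit.

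AFP rose while its neighbour ALB fell. Without IFN, AFP stood at 329 and 331 CPM in sgNeg2, 548 and 555 in sg1 and 575 and 656 in sg2, so every knockout library exceeded the controls. Its log2 change was 0.82 ± 0.09, 1.77-fold (edgeR adjusted p = 5.56e-05). ALB stood at 2982 and 3004 CPM in sgNeg2, 2062 and 2029.9 in sg1 and 2312 and 2526 in sg2, with no overlap and the lowest values in sg1. The ALB change was -0.42 ± 0.09, a level of 0.746 of the control (edgeR adjusted p = 0.00950).

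Under IFN the AFP difference was smaller and ALB was not called. AFP held 366 and 363 CPM in sgNeg2, 514 and 506 in sg1 and 454 and 444 in sg2, a log2 change of 0.40 ± 0.09 (edgeR adjusted p = 0.00791). ALB held 3371 and 3331 CPM in sgNeg2, 3369.7 and 3329.5 in sg1 and 2965 and 2845 in sg2. The sg1 libraries thus overlapped the controls and the sg2 libraries did not. The ALB change was -0.10 ± 0.09 (edgeR adjusted p = 0.563), and it was -0.21 with sg2 alone (edgeR adjusted p = 0.0202).

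GC, the vitamin D carrier, fell in both settings. Its libraries without IFN held 58.3 and 54.7 CPM in sgNeg2, 39.0 and 34.1 in sg1 and 43.9 and 49.3 in sg2. Every knockout library was below both controls, sg2 nearer to them. The log2 change was -0.44 ± 0.12 (edgeR adjusted p = 0.0252), and with sg2 alone it was -0.28 and not called (edgeR adjusted p = 0.0549). With IFN the values were 50.6 and 46.1, then 34.2 and 35.3, then 34.6 and 33.8 CPM. Here both guides gave nearly the same level, below the controls. The change was -0.49 ± 0.11 (edgeR adjusted p = 0.0125).

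TTR and RBP4, which travel in plasma as a complex, did not pass the test in either setting. TTR held 53.8 and 54.6 CPM in sgNeg2 without IFN, 45.3 and 50.1 in sg1 and 42.0 and 38.9 in sg2, all knockout libraries below the controls. Its log2 change was -0.30 ± 0.13 (edgeR adjusted p = 0.183), and with sg2 alone -0.42 (edgeR adjusted p = 0.00955). With IFN it held 14.6 and 13.9 CPM in sgNeg2 and 8.34 to 12.4 in knockout libraries, a change of -0.41 ± 0.14 (edgeR adjusted p = 0.0707). Leaving out IFN sg2 replicate 1 gave -0.49 and a call (edgeR adjusted p = 0.0367), as did sg1 alone (-0.59, edgeR adjusted p = 1.63e-05) and the guanine-cytosine offset (-0.42, edgeR adjusted p = 0.0464). RBP4 held 1204 and 1207 CPM without IFN in sgNeg2, 1027 and 1047 in sg1 and 1031 and 894 in sg2. No knockout library reached the controls, and sg2 replicate 2 stood lowest. The RBP4 change was -0.27 ± 0.10 (edgeR adjusted p = 0.111), and it was called with DESeq2 (-0.31, adjusted p = 0.0426), without histone and small RNA genes (-0.32, edgeR adjusted p = 0.0478), with the guanine-cytosine offset (-0.22, edgeR adjusted p = 0.000394), with either guide alone and in the 6-library fit (edgeR adjusted p = 0.0261). With IFN, RBP4 held 1109 and 1098 CPM in sgNeg2, 1009 and 1025 in sg1 and 1259 and 1297 in sg2. The guides lay on opposite sides of the controls, and the change over both was 0.06 ± 0.10 (edgeR adjusted p = 0.797). Each guide alone was called, sg1 at -0.12 (edgeR adjusted p = 0.000588) and sg2 at 0.21 (edgeR adjusted p = 0.0378).

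AMBP and ITIH2, the light and a heavy chain gene of inter-alpha-inhibitor, both fell without IFN. AMBP held 930.5 and 963 CPM in sgNeg2, 719 and 729.6 in sg1 and 708 and 703 in sg2, and the 4 knockout libraries lay close together below the controls. Its log2 change was -0.41 ± 0.09 (edgeR adjusted p = 0.00903). ITIH2 held 469 and 475 CPM in sgNeg2, 296 and 284 in sg1 and 315 and 339 in sg2. With no overlap, its change of -0.61 ± 0.07 was the largest fall of the 9 genes (edgeR adjusted p = 9.35e-05).

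With IFN, AMBP held 1262 and 1231 CPM in sgNeg2, 866 and 901 in sg1 and 1069 and 1099 in sg2. Both guides were below the controls, sg1 further. The change was -0.34 ± 0.09 (edgeR adjusted p = 0.0201). It was -0.20 with sg2 alone, still called, and it lost its call in the 6-library fit (-0.29, edgeR adjusted p = 0.171). ITIH2 held 603 and 609 CPM in sgNeg2, 544 and 559 in sg1 and 531 and 516 in sg2, all knockout libraries below both controls, with a change of -0.17 ± 0.07 that was not called (edgeR adjusted p = 0.142). It was called with sg1 alone (-0.14, edgeR adjusted p = 0.000467), with sg2 alone (-0.21, edgeR adjusted p = 0.0154) and with the guanine-cytosine offset (-0.18, edgeR adjusted p = 0.00643).

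GPC3, the fetal glypican, fell in both settings. Without IFN it held 1249 and 1241 CPM in sgNeg2, 885 and 875 in sg1 and 964 and 969 in sg2. The guides formed 2 tight pairs below the controls. The log2 change was -0.43 ± 0.06 (edgeR adjusted p = 0.000424). With IFN it held 1561 and 1528 CPM in sgNeg2, 1236 and 1237 in sg1 and 1198 and 1205 in sg2, again without overlap. The change was -0.34 ± 0.06 (edgeR adjusted p = 0.00190), and both calls held in each alternative fit. AFP and GPC3, both serum or tissue markers of liver cancer, thus differed in direction in the same libraries.

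Markers of other cell types moved in the same HuH-7 comparison. Without IFN, the summed level of 7 fibroblast markers was 123 to 125 CPM in sgNeg2 and 81.6 to 90.7 in knockout libraries, most of it PDGFRA. COL1A1 was higher in knockout, 3.03 against 11.2 and 9.51 CPM as group means. With IFN the fibroblast sum was 75.6 to 82.0 in sgNeg2 and 53.6 to 63.1 in knockout. There PDGFRA was called lower (-0.76), while COL1A1 (2.67), LUM (4.36) and PDGFRB (2.74), all at lower levels, were called higher. The 5 endothelial markers summed to 8.61 to 9.67 in sgNeg2 and 16.0 to 18.4 in knockout without IFN, nearly all PECAM1. The 7 leukocyte markers summed to 4.81 to 4.91 CPM in sgNeg2 and 3.81 to 5.29 in knockout without IFN. Their sums with IFN were 5.40 to 5.77 in sgNeg2 and 5.19 to 7.95 in knockout. Among them PTPRC was at 0 CPM. The 10 hepatocyte markers that are not among these genes summed to 13234 to 13283 CPM in sgNeg2 and 10817 to 12335 in knockout without IFN. With IFN these sums were 6131 to 6201 and 5358 to 5552. There CPS1 (1.17) and TAT (1.56) were called higher, APOA1, F2 and HNF4A lower and the others not. The part of these markers in the results was not tested.

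Over all 15312 genes with a transcript sequence, the log2 change of knockout without IFN had a Spearman correlation of -0.28 with guanine-cytosine content. The correlation was 0.06 for knockout with IFN and 0.30 for IFN against none in sgNeg2 cells. For EPZ-5676 it was 0.02, over 14076 genes. Such values are descriptions across genes, which are not independent replicates. The longest coding transcripts of AFP and ALB have a guanine-cytosine share of 38.8% and 41.3%, and that of AHSG 53.7%.

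**Figure D2:**
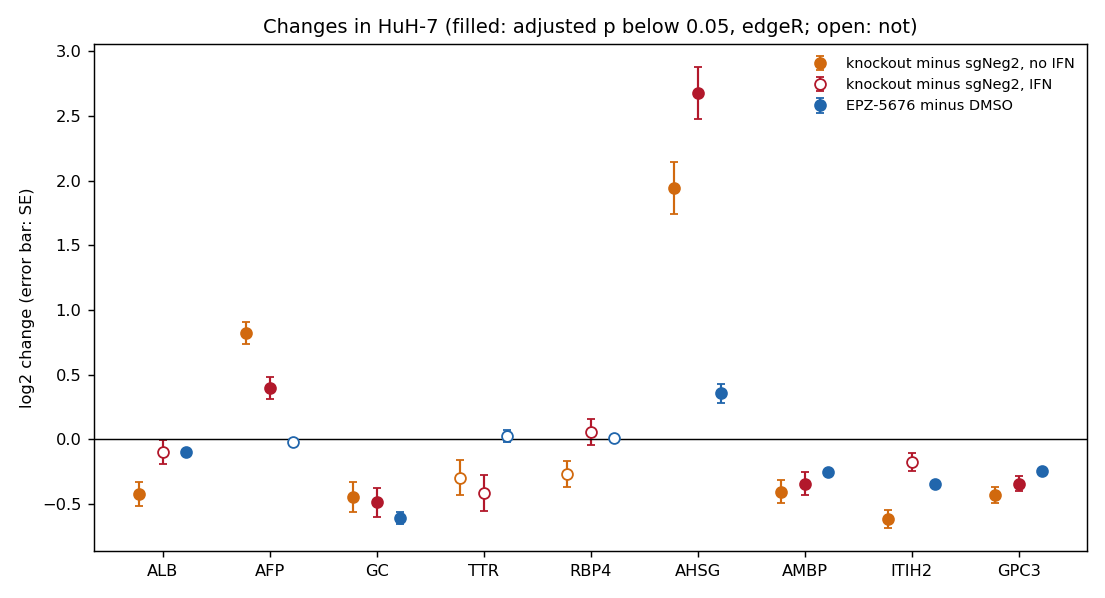
Log2 changes of the 9 detected genes in HuH-7 with bars of 1 SE, for knockout without IFN, knockout with IFN and EPZ-5676 against DMSO. AHSG lies highest among the knockout changes at 1.94 and 2.68.

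With IFN against none in control-guide cells, TTR was lower and AMBP, ITIH2 and GPC3 were higher. These are 3 higher and 1 lower of 9, where 67.8% of all genes were called. The median log2 change was 0.14 over the 9 genes and -0.06 over all genes. TTR fell from 53.8 and 54.6 CPM to 14.6 and 13.9, with wide separation, by 1.93 ± 0.16 on the log2 scale (edgeR adjusted p = 3.02e-07). This call held in each alternative, and TTR was -1.59 against the DMSO libraries as control. AMBP changed by 0.40 ± 0.10 (edgeR adjusted p = 0.00371), ITIH2 by 0.36 ± 0.08 (edgeR adjusted p = 0.00167) and GPC3 by 0.31 ± 0.07 (edgeR adjusted p = 0.00144). These 3 rises depended on the control: against DMSO libraries the values were -0.13 for AMBP, -0.94 for ITIH2 and -0.0086 for GPC3, and with the guanine-cytosine offset AMBP was 0.084 and not called (edgeR adjusted p = 0.217). ALB, AFP, AHSG, GC and RBP4 had changes between -0.28 and 0.16 and did not pass the test. Against the DMSO libraries 7 members were called, among them ALB at -0.60, AFP at -1.18, AHSG at -1.51 and RBP4 at 0.23.

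The knockout effect with IFN was set against that without by an interaction term. None of the 9 genes was called by edgeR, where 0.505% of all genes were. At an unadjusted p below 0.05 there were 5, beside 2114 of all 16448 genes, and DESeq2 called 1, beside 400 of all genes. Nearest were ITIH2, with a log2 difference of 0.44 ± 0.10 (edgeR adjusted p = 0.0800), and AFP, with -0.43 ± 0.12 (edgeR adjusted p = 0.140). ITIH2 was called without sg2 replicate 2 (0.49, edgeR adjusted p = 0.0325), with DESeq2 (0.50, adjusted p = 0.000919), without histone and small RNA genes (0.54, edgeR adjusted p = 0.0454) and with the guanine-cytosine offset (0.54, edgeR adjusted p = 5.19e-05). The AHSG difference was 0.73 ± 0.27 (edgeR adjusted p = 0.247). Of all called genes 41.0% had a higher difference, but 56.0% with RLE scaling, 55.5% with DESeq2, 72.0% without histone and small RNA genes and 30.3% with sg1 alone. Leaving out histone and small RNA genes moved the median of all genes by 0.10.

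The 2 guides were also compared directly, sg2 minus sg1. Without IFN none of the 9 genes was called by edgeR and 0.0304% of all genes were, with 7 of the 9 at an unadjusted p below 0.05 and 4 called by DESeq2. Over all 16448 genes, 1876 had an unadjusted p below 0.05 and DESeq2 called 112. Leaving out sg2 replicate 1 gave 7 calls among the 9 and 3688 over all genes, and leaving out sg2 replicate 2 gave 2 and 96. With IFN 4 genes were higher and 2 lower with sg2, while 34.4% of all genes were called. AHSG was higher by 0.46, TTR by 0.34, RBP4 by 0.33 and AMBP by 0.30 on the log2 scale, and ALB (-0.21) and AFP (-0.19) were lower. The AFP call was lost without any 1 of the 4 libraries (edgeR adjusted p = 0.0502 to 0.112), as was that of TTR without IFN sg1 replicate 2 or either sg2 replicate, and without IFN sg2 replicate 2 only 2 calls were left. With the guanine-cytosine offset ALB was 0.036, AFP 0.13, RBP4 0.052 and AMBP 0.044. Over all genes 48.9% of these calls were higher, and 60.9% with the offset.

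EPZ-5676 lowered GC, ITIH2, AMBP, GPC3 and ALB and raised AHSG. These are 1 higher and 5 lower of 9, where 33.7% of all 15023 genes tested were called. The median log2 change was -0.10 over the 9 genes and 0.00912 over all genes. All EPZ-5676 libraries lay above all DMSO libraries for 1 gene and below for 5, and 43.8% of all genes did not overlap. DMSO and EPZ-5676 libraries share no control with the guide libraries.

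GC held 49.1, 48.1 and 48.5 CPM with DMSO and 31.5, 32.7 and 31.4 with EPZ-5676. The groups were tight and far apart, with a log2 change of -0.61 ± 0.05 (edgeR adjusted p = 2.34e-18), the largest of the 9 genes under the drug. AHSG held 16.1, 13.6 and 14.1 CPM with DMSO and 19, 18.5 and 18.7 with EPZ-5676. Its values did not overlap, and the change was 0.35 ± 0.07 or 1.28-fold (edgeR adjusted p = 3.68e-05). AHSG thus stood higher with DMSO than in sgNeg2 libraries, although the tables are separate.

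ITIH2 held 1114, 1105 and 1101 CPM with DMSO and 869, 880.1 and 867 with EPZ-5676. It was lower in all treated libraries, with a change of -0.34 ± 0.01 (edgeR adjusted p = 5.26e-38). AMBP went from 1294 to 1301 CPM with DMSO to 1082 to 1101 with the drug, a change of -0.25 ± 0.01 (edgeR adjusted p = 7.42e-32). GPC3 went from 1477 to 1486 CPM to 1227 to 1269, a change of -0.24 ± 0.01 (edgeR adjusted p = 1.49e-29). AMBP, ITIH2 and GPC3 were thus lower in each treated library.

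ALB held 4904, 4824 and 4817 CPM with DMSO and 4530.0, 4560.3 and 4505 with EPZ-5676. The separation was complete and small, -0.10 ± 0.01 (edgeR adjusted p = 4.58e-20). AFP held 794, 786 and 783 CPM with DMSO and 776, 785 and 769 with EPZ-5676. The AFP groups overlapped, with a change of -0.02 ± 0.01 (edgeR adjusted p = 0.236). TTR changed by 0.02 ± 0.05 (edgeR adjusted p = 0.731) and RBP4 by 0.01 ± 0.01 (edgeR adjusted p = 0.562), also with overlap. Beside these values, the fibroblast sum was 102 to 106 CPM with DMSO and 93.0 to 97.8 with EPZ-5676, most of it PDGFRA (-0.18, called). COL1A1 (1.78) and LUM (2.46, at a mean of 0.38 CPM) were called higher. The sum of 10 other hepatocyte markers was 11985 to 12031 against 10284 to 10339, most of it APOB and TF. CPS1 (0.56), TAT (0.89) and CYP2E1 (1.19), at a few CPM, were called higher and all others lower. The part of both lists in the result was not tested.

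Other genes of these pathways were read from 7 lists. Of 28 other plasma proteins of hepatocytes, 2 were higher and 8 lower in knockout without IFN, 10 higher and 3 lower with IFN, and 10 higher and 8 lower of 26 with EPZ-5676. These counts stand against 11.3%, 12.4% and 33.7% of all genes called, as do those of the lists that follow. FGA, the fibrinogen alpha chain, fell by 1.06 ± 0.11 without IFN (edgeR adjusted p = 5.16e-05). It rose by 0.62 ± 0.12 with IFN and by 0.07 ± 0.02 with EPZ-5676 (edgeR adjusted p = 0.00345 and 0.000261), values looked up after the first was seen. SERPINA7, the thyroxine-binding globulin and so a second carrier of the ligand of TTR, changed by 2.04 ± 0.19 with IFN (edgeR adjusted p = 1.16e-05). With IFN against none in sgNeg2 cells 15 of the 28 were lower and 8 higher, where 67.8% of all genes were called.

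Of the inter-alpha-inhibitor list, 1 of 4 tested was higher without IFN, 2 were higher and 1 lower with IFN, and 1 of 3 was higher with the drug. ITIH5, another heavy chain gene, rose by 0.73 ± 0.10 without IFN and by 1.73 ± 0.10 with IFN (edgeR adjusted p = 0.000364 and 1.41e-07). ITIH2 changed by -0.61 and was called without IFN, and by -0.17 and was not called with IFN. With EPZ-5676 ITIH5 rose by 0.50 ± 0.06 (edgeR adjusted p = 1.03e-11), while ITIH2 changed by -0.34 ± 0.01. Among 5 other glypicans, 1 was higher and 1 lower without IFN, 2 were higher with IFN, and 1 of 4 was higher and 1 lower with the drug. GPC4 rose by 1.86 ± 0.11 without IFN, 1.98 ± 0.11 with IFN and 1.11 ± 0.10 with EPZ-5676 (edgeR adjusted p = 5.71e-07, 9.70e-08 and 5.91e-15), opposite in sign to GPC3 in each.

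Of 15 liver transcription factors, 7 were lower and 0 higher in knockout without IFN, 4 lower and 0 higher with IFN, and 10 lower and 1 higher with EPZ-5676. ONECUT1, a factor of hepatocyte development, changed by -0.62 ± 0.09 without IFN, -0.91 ± 0.09 with IFN and -0.43 ± 0.08 with the drug (edgeR adjusted p = 0.000521, 2.57e-05 and 4.92e-06). With IFN against none in sgNeg2 cells 8 of these factors were lower and 1 higher, against the same 67.8% of all genes. There ZBTB20, a repressor of AFP after birth, fell by 4.06 ± 0.15 (edgeR adjusted p = 1.10e-10), or by 1.53 against the DMSO libraries. AFP was not called there, but was -1.18 and called against the DMSO libraries (edgeR adjusted p = 1.41e-28). Among oncofetal and progenitor genes of liver, 1 was higher and 2 lower of 12 without IFN, 0 higher and 4 lower with IFN, and 1 higher and 8 lower of 12 with the drug. EPCAM, an adhesion protein of liver progenitors, rose by 0.75 ± 0.09 without IFN (edgeR adjusted p = 0.000167). It changed by 0.08 with IFN, not called, and by -0.07 with EPZ-5676 (edgeR adjusted p = 0.624 and 0.0346), again looked up afterwards. Receptors and ligand metabolism of the carriers gave 2 higher and 0 lower of 8 in each knockout setting. Only 1 imprinted neighbour of DLK1 passed the filter on low counts in HuH-7. Without sgNeg2 replicate 1 or 2, the knockout without IFN called 1 and 2 of the factors and 4 and 6 of the plasma proteins. Without IFN sgNeg2 replicate 1 or 2, the knockout with IFN called 2 and 2 of the factors and 8 and 6 of the plasma proteins, and the 6-library fit called 1 and 7.

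The mouse lines differed in which of these genes they expressed. Hepa1-6 sgNeg2 libraries held means of 8712 CPM for Alb, 6352 for Afp, 1861 for Rbp4, 1236 for Itih2 and 837 for Gpc3. Lower values were found for Gc at 21.7, Ttr at 5.07 and Ambp at 4.86. Ahsg had 36 counts in both libraries together and Dlk1 had 4. Levels in mouse are not per length and are compared here for 1 gene between lines only.

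Hep53.4 shared 2 of these genes at higher levels, Rbp4 at 599 CPM and Itih2 at 70.5, while Afp was at 1.59, Alb at 1.35 and the other 6 at 0.25 or less, with Ttr and Dlk1 at 0 counts. Of 8 other hepatocyte markers, 2 (Apob and Hnf4a) exceeded 1 CPM in Hep53.4 and 4 did in Hepa1-6 sgNeg2. The sum of these 8 was nevertheless higher in Hep53.4 sgNeg2, at 916 to 925 CPM against 446 to 465 in Hepa1-6 sgNeg2. LLC had Rbp4 at 15.6 CPM, Afp at 0.158 CPM from 18 counts, Itih2 at 2 counts and 0 counts of the other 7, and in its knockout libraries Ahsg had 6 counts, all in sg1 replicate 2. None of 8 hepatocyte markers and none of 7 lung epithelial markers exceeded 1 CPM in LLC, where the lung list summed to at most 0.411 CPM, so its label was not borne out by these markers.

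**Figure D3:**
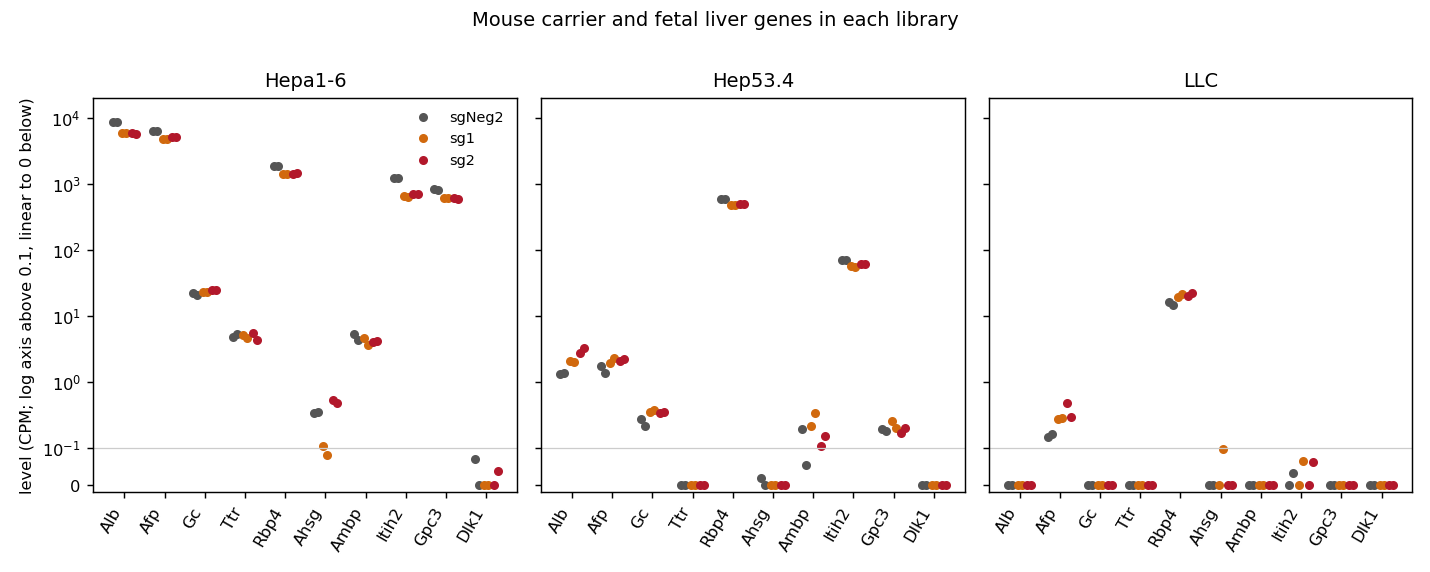
CPM of the 10 genes in each mouse library, on an axis that is logarithmic above a low level, with sgNeg2, sg1 and sg2 libraries as separate points in Hepa1-6, Hep53.4 and LLC. Alb falls from 8712 CPM in Hepa1-6 to 1.35 in Hep53.4 and to 0 in LLC.

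Between control-guide libraries of the 3 lines, 9 of the 10 genes passed the filter on low counts. In the fits of single lines 9 passed in Hepa1-6, 7 in Hep53.4 and 2 in LLC, so a gene that passed only through Hepa1-6 had to be higher there, and no count over the genes is read from this comparison. Of all genes tested, 76.2% were called between Hepa1-6 and Hep53.4, 81% between Hepa1-6 and LLC and 78.1% between Hep53.4 and LLC. Rbp4 was higher in Hepa1-6 than in Hep53.4 by 1.64 ± 0.05 and Itih2 by 4.13 ± 0.07 on the log2 scale (edgeR adjusted p = 2.27e-26 and 6.48e-23). Alb was higher in Hepa1-6 than in LLC by at least 328858-fold and Gpc3 by at least 31582-fold, taking 3 counts over the LLC group as the limit of its 0. Hep53.4 had at least 51.0-fold more Alb than LLC by the same limit. In the fits of single lines Ahsg passed only in Hepa1-6, so its call against Hep53.4 had a fixed direction and is not read as a result.

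Knockout of Dot1l in Hepa1-6 lowered Itih2, Alb, Gpc3, Rbp4 and Afp. These are 5 lower and 0 higher of 9, where 32.8% of 12493 genes tested were called. The median log2 change was -0.33 over the 9 genes and 0.01 over all genes. Knockout libraries lay below both controls for 5 genes and above for 1, and 48.7% of all genes did not overlap.

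Itih2 held 1229 and 1243 CPM in sgNeg2, 653 and 632 in sg1 and 709 and 699 in sg2, well below the controls with both guides. Its log2 change was -0.87 ± 0.04, a level of 0.549 of the control (edgeR adjusted p = 7.87e-13). Alb held 8686 and 8737 CPM in sgNeg2, 5909.9 and 6040.0 in sg1 and 5975 and 5827 in sg2. All 4 knockout libraries were close together, and the change was -0.54 ± 0.03 (edgeR adjusted p = 2.11e-11).

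Afp held 6296 and 6407 CPM in sgNeg2, 4885 and 4905 in sg1 and 5110 and 5096 in sg2. Unlike AFP in HuH-7, it was lower in every knockout library, with a change of -0.33 ± 0.03 (edgeR adjusted p = 5.51e-08). The difference between species was not tested. Gpc3 held 851 and 822 CPM in sgNeg2 and 599 to 624 in knockout libraries, a change of -0.44 ± 0.03 (edgeR adjusted p = 1.16e-09). Rbp4 held 1851 and 1870.5 CPM in sgNeg2 and 1404 to 1495 in knockout, a change of -0.36 ± 0.03 (edgeR adjusted p = 3.20e-08).

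Gc held 22.4 and 21.0 CPM in sgNeg2 and 23.1 to 25.2 in knockout libraries, above the controls in all 4 but not called (0.16 ± 0.08, edgeR adjusted p = 0.139). Ambp changed by -0.21 ± 0.16 (edgeR adjusted p = 0.341) and Ttr by -0.02 ± 0.15 (edgeR adjusted p = 0.924), both with overlapping groups. Ahsg split by guide, with 5 and 4 counts in the sg1 libraries, 27 and 26 in sg2 and 19 and 17 in sgNeg2, and was not called (edgeR adjusted p = 0.881). The guides differed for Itih2 alone, 0.12 higher with sg2, where 2.79% of all genes were called between guides; this call was lost without Hepa1-6 sg1 replicate 2 (edgeR adjusted p = 0.264) or sg2 replicate 1 (0.123).

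Beside the Hepa1-6 changes, the fibroblast marker sum was 425 to 442 CPM in sgNeg2 and 348 to 362 in knockout, and that of 8 other hepatocyte markers was 446 to 465 and 284 to 328. Their part in the result was not tested. Against 32.8% of all genes called, 9 of 15 liver transcription factors were lower and 0 higher. Zbtb20 fell by 1.18 ± 0.13 and Prox1, a factor of hepatoblast growth, by 1.12 ± 0.06 (edgeR adjusted p = 2.27e-07 and 2.78e-12). Of 18 other plasma proteins 4 were higher and 7 lower, with Afm, the albumin family neighbour, higher by 1.13 ± 0.18 (edgeR adjusted p = 5.01e-05).

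In Hep53.4 the knockout raised Alb from a low level and lowered Rbp4 and Itih2. These are 1 higher and 2 lower of 7 tested, where 39.2% of 12227 genes were called. The median log2 change was 0.45 over the 7 genes and -0.00267 over all genes, and 3 of the 7 were below 1 CPM in sgNeg2. Knockout libraries lay above both controls for 3 genes and below for 2, against 52.3% of all genes that did not overlap. Alb held 1.32 and 1.39 CPM (66 and 76 counts) in sgNeg2, 2.13 and 2.07 in sg1 and 2.73 and 3.32 in sg2. No value overlapped, and sg2 stood highest. The change was 0.91 ± 0.23 or 1.88-fold (edgeR adjusted p = 0.00212).

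Rbp4 held 593 and 605 CPM in Hep53.4 sgNeg2, 480.3 and 485 in sg1 and 499 and 495 in sg2. It was lower in every knockout library, by -0.29 ± 0.03 (edgeR adjusted p = 2.38e-10). Itih2 held 71.1 and 70.0 CPM in sgNeg2, 56.9 and 54.8 in sg1 and 60.8 and 62.8 in sg2. This fall was -0.26 ± 0.05 (edgeR adjusted p = 5.11e-05). Afp held 1.77 and 1.40 CPM in sgNeg2 and 1.93 to 2.37 in knockout, above the controls but not called (0.45 ± 0.22, edgeR adjusted p = 0.105). Between guides no member of 7 was called by edgeR, where 2.9% of all genes were, with 2 at an unadjusted p below 0.05 (1817 of 12227 genes) and 0 by DESeq2. DESeq2 moved the share of higher calls over all genes between these guides from 43.4% to 27.5%. The endothelial sum was 50.7 to 51.9 CPM in sgNeg2 and 29.3 to 33.6 in knockout, and its part was not tested. Of 14 liver transcription factors 6 were lower and 0 higher, against 39.2% of all genes called, among them Hnf4a at -0.34 ± 0.03 (edgeR adjusted p = 1.45e-10).

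In LLC, 2 of the 10 genes passed the filter and Rbp4 was called higher, 1 of 2, where 33.5% of 12225 genes were called. The median of these 2 genes was 0.73 and of all genes 0.00832. Both genes had all knockout libraries above the controls, against 50% of all genes that did not overlap. Rbp4 held 16.6 and 14.6 CPM in sgNeg2, 19.7 and 21.5 in sg1 and 20.6 and 22.2 in sg2. The change was 0.41 ± 0.08 (edgeR adjusted p = 0.000342). Afp rested on 18 counts in the controls and 79 in knockout libraries and was not called (1.06 ± 0.56, edgeR adjusted p = 0.153). Neither gene was called between guides by edgeR, where 6.01% of all genes were, with 0 at an unadjusted p below 0.05 (2189 of 12225 genes) and 0 by DESeq2. The fibroblast sum was 1032 to 1059 CPM in sgNeg2 and 1465 to 1494 in knockout libraries, and its part was not tested.

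**Figure D4:**
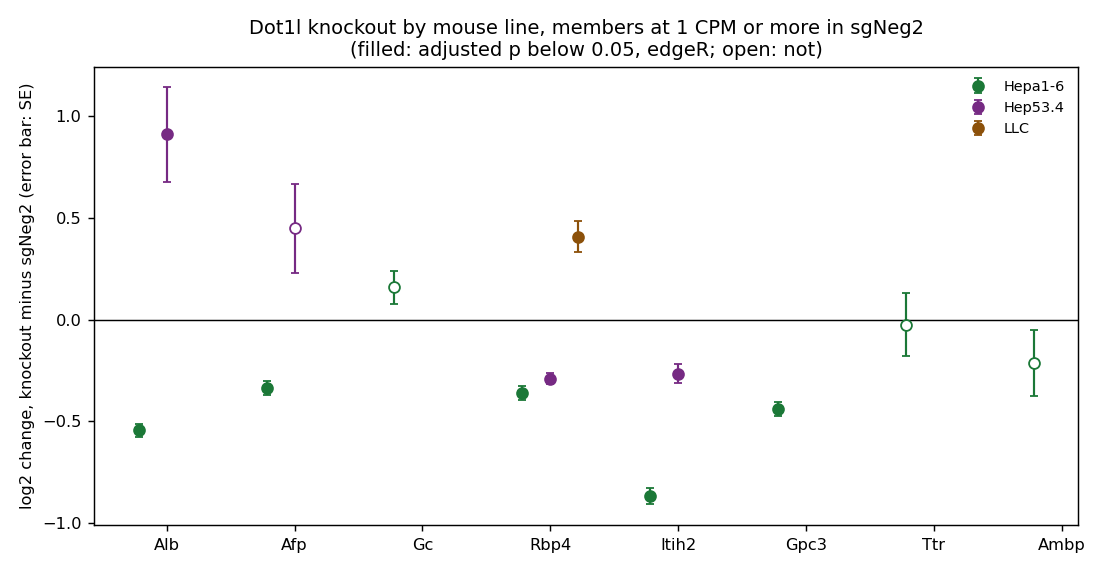
Log2 change with Dot1l knockout in the 3 mouse lines with bars of 1 SE, for genes at 1 CPM or more in the sgNeg2 libraries of that line, a display limit chosen after the values were seen. In Hepa1-6 Itih2 is lowest at -0.87, while Rbp4 is at -0.36 in Hepa1-6, -0.29 in Hep53.4 and 0.41 in LLC.

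The knockout effects were compared between lines in 1 fit. Only genes that passed the filter on low counts in each line's own fit are counted here, since the others had few or no counts in at least 1 of the lines. Hepa1-6 minus Hep53.4 gave 3 lower of 7, Alb, Afp and Itih2, where 24.7% of 14195 genes were called. The differences were -1.44 for Alb, -0.80 for Afp and -0.61 for Itih2 on the log2 scale (edgeR adjusted p = 2.27e-06, 4.34e-06 and 9.86e-06). The Alb effect in Hepa1-6 comes from a control mean of 8712 CPM and that in Hep53.4 from 142 control counts. Hepa1-6 minus LLC gave 2 lower of 2, Afp at -1.41 and Rbp4 at -0.80 (edgeR adjusted p = 0.000453 and 1.79e-11). There 24.6% of all genes were called, and Afp had 18 control counts in LLC. The SE of this Afp difference was 0.28, below the 0.56 of the LLC fit alone. Against Hep53.4, the SEs of Alb (0.16) and Afp (0.12) were likewise below those of the Hep53.4 fit alone. The p-values of these Alb and Afp differences thus rest on a spread too small for the low counts. Hep53.4 minus LLC gave 1 lower of 2, Rbp4 at -0.72, where 29.2% of all genes were called (edgeR adjusted p = 1.94e-10). Rbp4 therefore fell in both liver lines, rose in LLC, and differed between LLC and each of them by the test itself.

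Patterns over the 12 HuH-7 guide libraries were described after the mean of each IFN setting had been taken away, so that what remains is genotype, guide and library. Pearson's r between members was 0.94 for ALB and ITIH2, 0.94 for GC and GPC3, 0.92 for ITIH2 and GPC3, -0.92 for AFP and AMBP and -0.91 for AHSG and GPC3. Among 10936 genes of at least 5 CPM, those most like AHSG were CKAP4 (0.99), A2M (0.99) and CD177 (0.99), and those most like AFP were CTSS (0.99), HERC6 (0.99) and GBP3 (0.98). RBP4 was most like CEBPA (0.99), CLU (0.99) and POLD4 (0.99), and ALB most like NBR1 (0.98), HBP1 (0.97) and YPEL5 (0.97). GC was nearest to WDR82, PPARG and CTNNA1, AMBP to CTGF, TLE1 and CLSTN1, ITIH2 to ZEB1, ZCCHC2 and TXNIP, and GPC3 to MAP2K1, GLUD1 and PPARA, all with r of 0.97 or more after rounding. TTR had ANXA11, SIPA1L3 and PTPN18 nearest, at 0.93 each. The points share genotype, guide and library depth, so these values are descriptions and carry no p.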

How the data were processed

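Per the labels' protocols, RNA was taken with the RNeasy kit and libraries were made with the VAHTS Universal V6 kit. The deposited values are raw counts per gene symbol, and the submitters' processing notes name Trim Galore, HISAT2 2.2.1, SAMtools 1.9 and DESeq2 1.36.0 with hg38 and mm10, while the counting program and the strand setting are not stated there, in the labels or in the file headers. Blank lines were dropped. Counts were tested in edgeR 4.0.16 under R 4.3.3 (TMM scaling, filterByExpr with a minimum count of 10 and a minimum total of 15, robust quasi-likelihood F test, Benjamini-Hochberg adjustment over all genes tested, calls below 0.05). CPM uses TMM-scaled totals, and the SE is the log2 change divided by the root of F. HuH-7 guide libraries shared 1 fit and so did the DMSO and EPZ-5676 libraries. Each mouse line had its own fit, and lines were compared in a fit over all 3. Knockout tests pooled sg1 and sg2 libraries as 1 knockout group, so their spread includes differences between guides. Guides had their own groups where they were compared. Tests were checked on simulated data.

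Alternatives were RLE scaling, no filter, DESeq2 1.42.0, a replicate block, single guides, a 6-library fit, histone and small RNA genes left out, DMSO as control, each library left out (84 refits) and, added after seeing the data, a guanine-cytosine offset. The genes and lists were chosen with earlier results of these data known. Named genes are all 10 members, up to 3 called genes of at least 1 CPM with the largest change per list, and the 3 genes most alike each member. Same-numbered libraries had correlations of deviations of -0.12 to 0.15 over 33 pairs, so numbers were not taken as pairs. Intervals and limits from 3 counts cover counting error only.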

Additional observations from a re-analysis of the deposited data

Results flagged for a closer look

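RBP4 in HuH-7 sg2 replicate 2 without IFN stood apart from the other 3 knockout libraries of that setting, at 894 CPM against 1027 to 1047. Afp in LLC sg2 replicate 1 stood apart at 0.493 CPM against 0.276 to 0.299 in the other 3 knockout libraries, a value of 26 counts. These are 2 of 36 groups of 4 libraries examined, and chance sets about 1 in 20 groups apart.

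The effect of Dot1l knockout differed between mouse lines by a test of the difference itself in edgeR. Between Hepa1-6 and Hep53.4 the log2 difference was -1.44 for Alb, -0.80 for Afp and -0.61 for Itih2 (adjusted p = 2.27e-06, 4.34e-06 and 9.86e-06). Between Hepa1-6 and LLC it was -1.41 for Afp and -0.80 for Rbp4 (adjusted p = 0.000453 and 1.79e-11). Control levels were low for Alb in Hep53.4 (1.35 CPM) and for Afp in LLC (0.158 CPM). The change of Afp was not called in Hep53.4 or in LLC alone. For Alb and Afp the SE of the difference was below that of the low line's own fit. Their p-values here thus rest on a spread too small for the low counts. Between Hep53.4 and LLC the log2 difference was -0.72 for Rbp4 (adjusted p = 1.94e-10).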

How the results depend on the processing

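The HuH-7 knockout calls of AHSG and GPC3 in both settings, those of AFP and ITIH2 without IFN, and the fall of TTR with IFN, kept their direction and their side of the threshold in every alternative run, as did the member calls of the knockouts in Hepa1-6, Hep53.4 and LLC. Over all single genes and alternatives 2470 of 2689 values kept direction and side, 116 lost a call, 55 gained one and 48 changed sign. Unless a value or the fit's own smaller size shows it, the cause was not tested.

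The number of all genes called in knockout without IFN (1863) was 4810 with the guanine-cytosine offset, 4940 with sg1 alone and 2897 with 6 libraries fitted. With IFN (2037) it was 4931 with the offset, 6465 with sg1 alone, 4109 with sg2 alone and 1000 with 6 libraries, and each guide alone called 8 members. There, with sg1 alone, ALB was 0.000268 and RBP4 -0.12.

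For IFN in sgNeg2 cells, the vitamin D carrier gene GC was 0.10 with the offset. With DMSO libraries as the control 7 members were called, ALB was -0.60, AFP -1.18, RBP4 0.23, AMBP -0.13, ITIH2 -0.94, GPC3 -0.0086, ITIH5 -0.36 and PROM1 0.25.

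The interaction called 83 genes and 0 members. It called 53 genes with the replicate block, 400 genes and 1 member with DESeq2, 1 member without histone and small RNA genes, 1002 genes and 4 members with the offset, 2641 genes and 6 members with sg1 alone and 2668 genes and 5 members with sg2 alone. In it the gene GC was 0.013 with RLE scaling, 0.013 with DESeq2, 0.057 without histone and small RNA genes, 0.098 with the offset and 0.15 with sg1 alone, AMBP was -0.015 with the offset and -0.11 with sg1 alone, and TTR was 0.17 with sg2 alone.

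Between guides without IFN (5 genes, 0 members) no filter gave 20 genes and 1 member, the replicate block 2 genes, DESeq2 112 genes and 4 members, and the offset 97 genes and 3 members, with RBP4 at 0.037 and AMBP at 0.095. With IFN (5657 genes) the offset gave 1397, with ALB at 0.036, AFP at 0.13, GC at 0.20 and ITIH2 at 0.040. Hepa1-6 Ahsg was 0.56 with sg2 alone. The replicate block changed no call of a member in any comparison, and the share of higher calls between guides without IFN went from 80% to 100% with it. Same-numbered libraries of the DMSO and EPZ-5676 groups had correlations of 0.0801 to 0.118.

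Leaving out 1 library at a time gave these ranges. Knockout without IFN called 4 to 7 members and 564 to 1670 genes, and with IFN 2 to 6 members and 960 to 2162 genes, with RBP4 at -0.0048 to 0.12. The interaction called 0 to 1 member and 19 to 176 genes, with GC at -0.11 to 0.099 and TTR at -0.20 to 0.049. Under EPZ-5676, RBP4 was -0.0027 to 0.018 and TTR -0.00027 to 0.041. Hepa1-6 knockout called 2381 to 3976 genes, with Ahsg at -0.58 to 0.14 and Ttr at -0.10 to 0.051, and LLC knockout called 2519 to 4193. Between guides the ranges were 0 to 7 members and 0 to 3688 genes without IFN, and 2 to 5 members and 2369 to 4234 genes with IFN, with GC at -0.047 to 0.0017. In Hepa1-6 they were 0 to 1 member and 116 to 170.0 genes, with Ambp at -0.19 to 0.18, Rbp4 at -0.028 to 0.052 and Ttr at -0.19 to 0.19, in Hep53.4 50 to 309 genes, with Afp at -0.11 to 0.18 and Gc at -0.096 to 0.0050, and in LLC 227 to 395 genes, with Rbp4 at -0.0016 to 0.12.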
